A study of Mus musculus with 12 samples.

Results

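The genes of cholesterol synthesis and of its control by SREBP2 were studied as a named list of 28 genes, taken by symbol, out of the 47937 genes counted in RNA sequencing of mouse bone marrow-derived macrophages. All 28 were found among the identifiers of the count table, and all 28 were among the 11760 genes with enough reads to be tested. The list holds 19 enzymes, of which 8 lead from acetyl-CoA to the isoprenoids and 11 from squalene to cholesterol, 5 genes of the SREBP machinery, and 4 genes of cholesterol transport and storage. Macrophages were grown from bone marrow of C57BL/6 mice in CSF-1 and sequenced in 4 groups of 3 libraries. The groups were resting macrophages (M0), inflammatory macrophages stimulated for 18 h with 50 ng/ml IFNγ together with LPS at 20 ng/ml, M0 given the DGAT1 inhibitor T863 (DGAT1i, 50 µM) for 18 h, and macrophages given IFNγ, LPS and DGAT1i together for 18 h. The labels give no time for M0, whereas by the study's methods its medium received no additions over the same 18 h. The source field names T863 for all 3 libraries of M0 with DGAT1i, whereas the descriptions of libraries 2 and 3 of that group read T864 and T865. Part of the results on the 28 members that rest on this group are also given from library 1 alone. For genes outside the list no such values are given. That arm then holds 1 library, assumed to vary like the libraries of the other groups, so that calls lost there say little about the labels. The design asks what inflammatory activation does to these genes, and what blocking triglyceride synthesis does to them in resting and in inflammatory macrophages.

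Cholesterol is built in the endoplasmic reticulum from acetyl-CoA through mevalonate, isoprenoid pyrophosphates, squalene and lanosterol. SREBP2 is made as a membrane protein there, and SCAP carries it to the Golgi when sterols are scarce, where a pair of proteases frees the part that enters the nucleus and switches on the genes of synthesis and uptake. When sterols are plentiful, INSIG proteins hold SCAP back, and oxysterols such as 25-hydroxycholesterol, which inflammatory macrophages make, act on the same step. DGAT1 makes triglyceride from diacylglycerol in the same membrane.

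The libraries held from 4996014 to 6621671 reads on genes, so that 1 CPM, the unit of counts brought to a common library size with TMM factors, stood for 4.28 to 7.58 reads. The inducible enzymes Nos2 and Acod1 followed the labels, with Nos2 at 0 in the 6 libraries without IFNγ + LPS and at 4412 to 5961 CPM in the other 6. Dgat1, the target of an inhibitor that acts on the protein, was at 10.0 to 20.8 CPM in the 12 libraries and checks no label. Of the 6 macrophage markers, Adgre1, Csf1r, Cd68 and Lyz2 were at 593 CPM or more in every library, and Mertk and Fcgr1 at 65.4 and 85.5 CPM or more. The lists of 3 B cell, 3 T cell and 3 mast cell and basophil markers each summed to at most 0.375 CPM in any library. Nothing in the labels says that libraries of a group came from separate mice, so p-values measure the spread between these libraries. In bulk RNA, fewer cells of a type and less RNA per cell cannot be told apart.

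Promoters were compared because many members moved together. Of the 28 members, 23 had an entry in the RefSeq promoter table used here (build GRCm38.p6), Fdps, Fdft1, Sqle, Stard4 and Npc1 were not searched, and motifs were searched on both strands in the 250 bases before each start. The sterol regulatory element, to which SREBP binds, was searched as TCACNCCA, the NF-Y box of its partner factor as CCAAT, and the GC box as GGGCGG. Letters of TCACNCCA stood before 3 of 23 members (13.0%), Hmgcs1, Msmo1 and Srebf2, against 4.03% of the 8938 tested genes in the table and 4.2% of all 27025. CCAAT stood before 21 of 23 (91.3%, all but Acat2 and Scap), against 40.9% of tested genes, and GGGCGG before 20 of 23 (87.0%), against 64.4%. A gene with several starts was counted if any of them held the letters. The 3 promoters with the sterol element are shown first, over 120 bases with TCACNCCA and CCAAT, or its complement ATTGG, in capitals. They come from chr13:119690194-119690313, plus strand, chr8:64733656-64733775, minus strand, and chr15:82147087-82147206, plus strand, and each reads towards its gene.
Hmgcs1: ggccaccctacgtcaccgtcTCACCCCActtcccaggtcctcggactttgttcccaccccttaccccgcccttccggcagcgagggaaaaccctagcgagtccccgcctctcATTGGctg
Msmo1: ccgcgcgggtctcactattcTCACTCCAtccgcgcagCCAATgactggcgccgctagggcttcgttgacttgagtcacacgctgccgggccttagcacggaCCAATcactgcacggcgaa
Srebf2: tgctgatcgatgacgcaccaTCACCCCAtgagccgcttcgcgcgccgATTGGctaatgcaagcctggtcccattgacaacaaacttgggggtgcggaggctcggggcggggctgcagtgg
The sterol element began 137 bases before the start of Hmgcs1, 177 before that of Msmo1 and 162 before that of Srebf2, counted from the starts in the RefSeq table. These differ from the GENCODE gene bounds printed with the results, since the Msmo1 element lies within the GENCODE gene and that of Srebf2 nearer to its start. The nearest NF-Y box lay 34, 9 and 19 bases away from it, with no overlap between the motifs, and for Hmgcs1 this box lies upstream of the stretch shown, which holds another one.

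Insig1, Soat1 and Npc2 are shown because their RNA passed the threshold with DGAT1i in both M0 and IFNγ + LPS, as did that of Npc1, whose promoter was not searched. Their windows lie at chr5:28071162-28071281, plus strand, chr1:156474329-156474448, minus strand, and chr12:84773113-84773232, minus strand, with the same capitals.
Insig1: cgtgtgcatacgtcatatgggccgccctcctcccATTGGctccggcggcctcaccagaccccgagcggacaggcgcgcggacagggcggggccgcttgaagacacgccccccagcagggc
Soat1: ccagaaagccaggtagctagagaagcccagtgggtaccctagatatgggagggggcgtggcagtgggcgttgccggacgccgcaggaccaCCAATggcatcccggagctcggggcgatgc
Npc2: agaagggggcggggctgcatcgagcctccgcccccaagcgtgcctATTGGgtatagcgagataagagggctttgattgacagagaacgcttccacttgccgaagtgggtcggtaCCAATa
In these 250-base stretches the letters TCACNCCA were not found, whereas CCAAT or ATTGG stood at 1 place before Insig1, 1 before Soat1 and 2 before Npc2. A match of letters is a description and not a site of binding.

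In M0, levels per kb of exon spanned from 141 CPM per kb for Npc2, the soluble carrier of cholesterol in lysosomes, to 2.17 for Tm7sf2, a sterol reductase, with a median of 6.20 over the 28 members. Soat1, which esterifies cholesterol, followed at 54.7 CPM per kb, and Hmgcs1, the cytosolic HMG-CoA synthase, was the highest of the 19 enzymes at 19.2. With the length of the longest transcript Npc2 and Soat1 remained the highest members, whereas among the enzymes Msmo1 (27.6 CPM per kb) passed Hmgcs1 (25.5) and Idi1 (2.79) lay below Tm7sf2 (3.10). The enzymes were counted on 52 (Idi1) to 698 reads (Hmgcs1) per M0 library and Npc2 on 5148 to 5791, so that the errors of the enzymes are wider.

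**Figure D1:**
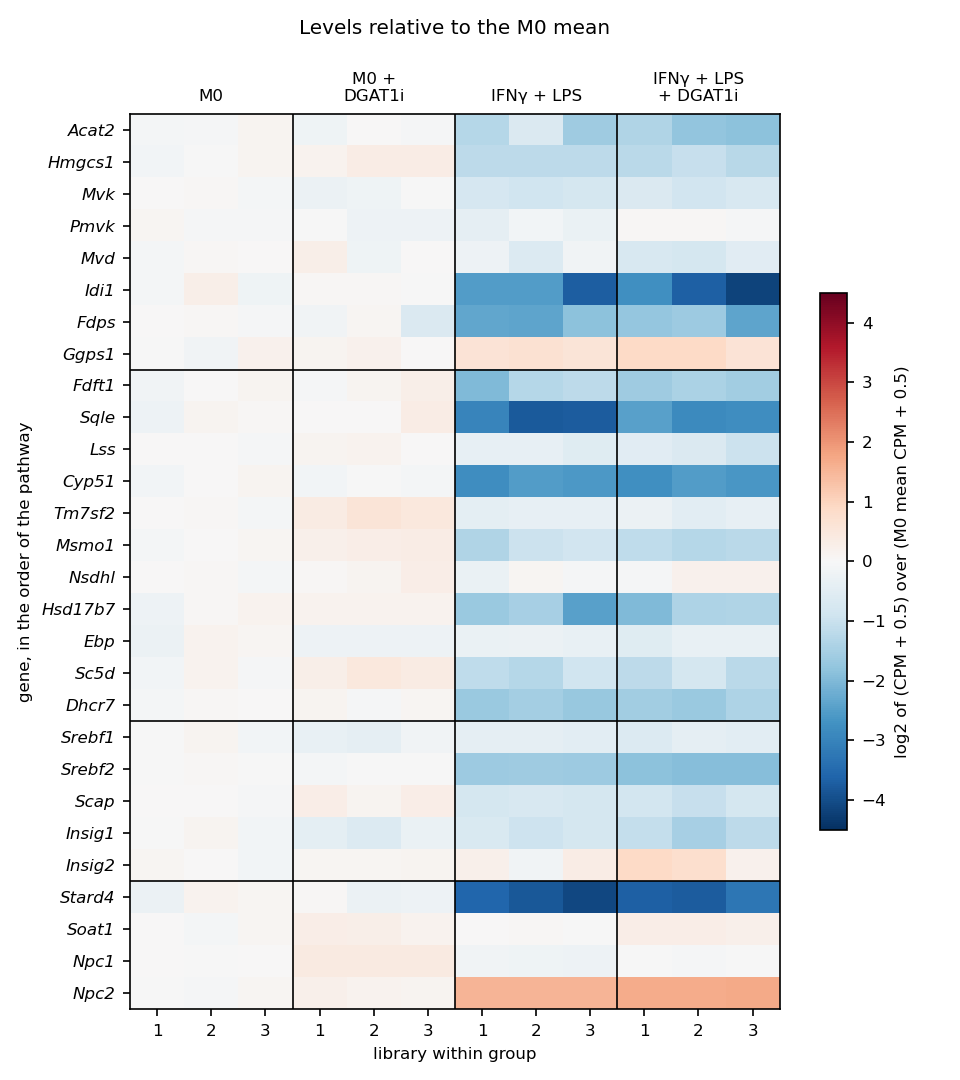
Level of each of the 28 members (rows, in the order of the pathway) in each of the 12 libraries (columns), as log2 of CPM + 0.5 over the M0 mean + 0.5, with blue below and red above M0. In the libraries with IFNγ + LPS the rows of Stard4, Sqle and Idi1 are the darkest blue, and Npc2 and Ggps1 are red.

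RNA of most enzymes of cholesterol synthesis was lower in inflammatory macrophages. Of the 28 members, 23 passed an adjusted p of 0.05 in IFNγ + LPS against M0 (quasi-likelihood test of edgeR, p-values adjusted after Benjamini and Hochberg over all genes tested), 21 lower and 2 higher. Among all 11760 genes 73.3% passed, 36.2% lower and 37.1% higher, so that passing was common but the members lay on the lower side. The median log2 fold change of the members was -0.83, against 0.01 for all genes tested. The groups did not overlap in 25 of 28 members, against 75.4% of all genes. Summed over the 19 enzymes, M0 stood at 494 ± 29.7 CPM (SD, n = 3) and IFNγ + LPS at 238 ± 9.87, and 15 enzymes passed as lower and 1 as higher. With scaling by library size only, the median of all genes moved to -0.46, all genes split into 2340 higher and 7002 lower against 4361 and 4254 with TMM, and 27 members passed, 26 of them lower.

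The steep falls sat at separate steps of the pathway. Sqle (ENSMUSG00000022351.14, chr15:59315077-59331192), the squalene epoxidase, was at 33.0, 42.3 and 39.8 CPM in M0 and at 4.42, 2.34 and 2.44 CPM in IFNγ + LPS. Its log2 fold change was -3.67 ± 0.18 (SE), a 12.7-fold fall, with an adjusted p of 3.52e-24. The groups lay far apart, and each library of IFNγ + LPS held only 13 to 21 reads. Idi1 (ENSMUSG00000058258.14, chr13:8885501-8892451), the isomerase that makes dimethylallyl pyrophosphate, went from 7.85, 10.3 and 7.24 CPM to 1.05, 1.08 and 0.187, which is 10.8-fold lower (log2 -3.43 ± 0.34, adjusted p = 3.25e-13) and rests on 1 to 6 reads per library in IFNγ + LPS. Cyp51 (ENSMUSG00000001467.5, chr5:4081145-4104746), the lanosterol demethylase, went from 44.6, 48.7 and 52.5 CPM to 6.53, 8.10 and 7.68, a 6.49-fold fall (log2 -2.70 ± 0.12, adjusted p = 3.16e-27). Fdps, the farnesyl pyrophosphate synthase, was 5.43-fold lower (log2 -2.44 ± 0.27, adjusted p = 9.78e-12), on 7 to 12 reads per library of IFNγ + LPS. Each of these 4 enzymes was lower in every library of IFNγ + LPS than in any of M0.

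In the first block of the pathway, from acetyl-CoA to the isoprenoids, 5 of 8 members fell, 1 rose and 2 did not pass. Hmgcs1 (ENSMUSG00000093930.1, chr13:119690379-119708260) was at 80.8, 87.1 and 97.2 CPM in M0 and at 38.7, 38.5 and 39.2 in IFNγ + LPS, 2.28-fold lower (log2 -1.19 ± 0.08, adjusted p = 1.67e-19). Acat2, the cytosolic acetoacetyl-CoA thiolase, fell 2.27-fold (log2 -1.19 ± 0.20, adjusted p = 6.33e-07), and Mvk, mevalonate kinase, 1.80-fold (log2 -0.85 ± 0.16, adjusted p = 6.51e-06). Pmvk and Mvd, the kinase and the decarboxylase that follow, did not pass (log2 -0.27 ± 0.15 and -0.35 ± 0.17, adjusted p = 0.105 and 0.0684). Both were nevertheless lower in every library of IFNγ + LPS than in any of M0. With scaling by library size only, both passed (log2 -0.74 and -0.82, adjusted p = 1.69e-05 and 3.82e-05). Without library 3 of IFNγ + LPS, Mvd passed as well (log2 -0.45, adjusted p = 0.0456).

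Ggps1, which makes the geranylgeranyl group used to anchor small GTPases in membranes and so leads away from sterols, was the enzyme that rose. It was at 15.3, 13.7 and 17.7 CPM in M0 and at 23.8, 25.2 and 23.4 in IFNγ + LPS, without overlap (log2 0.64 ± 0.12, adjusted p = 5.7e-06). Scaled by library size only, it was at log2 0.17 (adjusted p = 0.2), so that this rise holds relative to the scaling used.

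In the second block, from squalene to cholesterol, 10 of 11 members fell and Nsdhl did not pass. Fdft1, the squalene synthase, was 2.84-fold lower (log2 -1.51 ± 0.19, adjusted p = 2.3e-10). Hsd17b7 and Dhcr7, late reductases, were 3.84-fold (log2 -1.94 ± 0.20, adjusted p = 1.18e-12) and 3.27-fold lower (log2 -1.71 ± 0.15, adjusted p = 8.2e-15). Sc5d, the desaturase, and Msmo1, a methylsterol oxidase, were 2.18-fold (log2 -1.13 ± 0.14, adjusted p = 1.12e-10) and 2.08-fold lower (log2 -1.06 ± 0.08, adjusted p = 4.95e-17). Smaller falls were seen in Lss, the cyclase that forms lanosterol (log2 -0.43 ± 0.11, adjusted p = 0.000357), Ebp, the sterol isomerase (log2 -0.31 ± 0.11, adjusted p = 0.00782), and Tm7sf2 (log2 -0.41 ± 0.17, adjusted p = 0.0295). Nsdhl, the dehydrogenase that works next to Msmo1 and Hsd17b7, was at 12.2, 12.3 and 11.3 CPM in M0 and at 9.47, 12.8 and 11.4 in IFNγ + LPS, which overlap (log2 -0.08 ± 0.15, adjusted p = 0.658), and with scaling by library size only its log2 fold change was -0.55 (adjusted p = 0.00107). Enzymes of this block thus ranged from Nsdhl, with no detected change, to Sqle with its 12.7-fold fall.

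The calls of the small falls were the fragile ones. Tm7sf2 lost its call without M0 library 1 or 2, or without any 1 of the 3 libraries of IFNγ + LPS (adjusted p = 0.0529 to 0.0788), with DESeq2 (0.0956) and without a filter on low counts (0.0553), and Ebp without M0 library 2 (log2 -0.23, adjusted p = 0.0803). Fdft1 shares 774 bases of exon with Ctsb on the other strand, which had 788037 reads in the 12 libraries against 788 on Fdft1, and Tm7sf2 shares 532 bases with Vps51 on the same strand. Fdps shares 1124 bases with Gm43738 on the same strand, and Acat2 has a near-identical copy in Acat3, which covers 65.6% of its transcript and had 1 read. The sources used here do not give how reads at such places were counted and name different library kits, so the values of these 4 genes are less certain. Processed pseudogenes near-identical to Idi1, Gm13502 and Gm35570, cover 22.6% and 22.5% of its transcript and had 4 and 0 reads against 392 on Idi1, and Gm5630 covers 21.3% of that of Ggps1. The same holds for 8 members that share exon with a gene on the other strand, Scap over 985 bases, Hmgcs1 over 557, Npc1 over 511, Lss over 381, Idi1 over 323, Ggps1 over 257, Cyp51 over 166 and Srebf1 over 109.

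**Figure D2:**
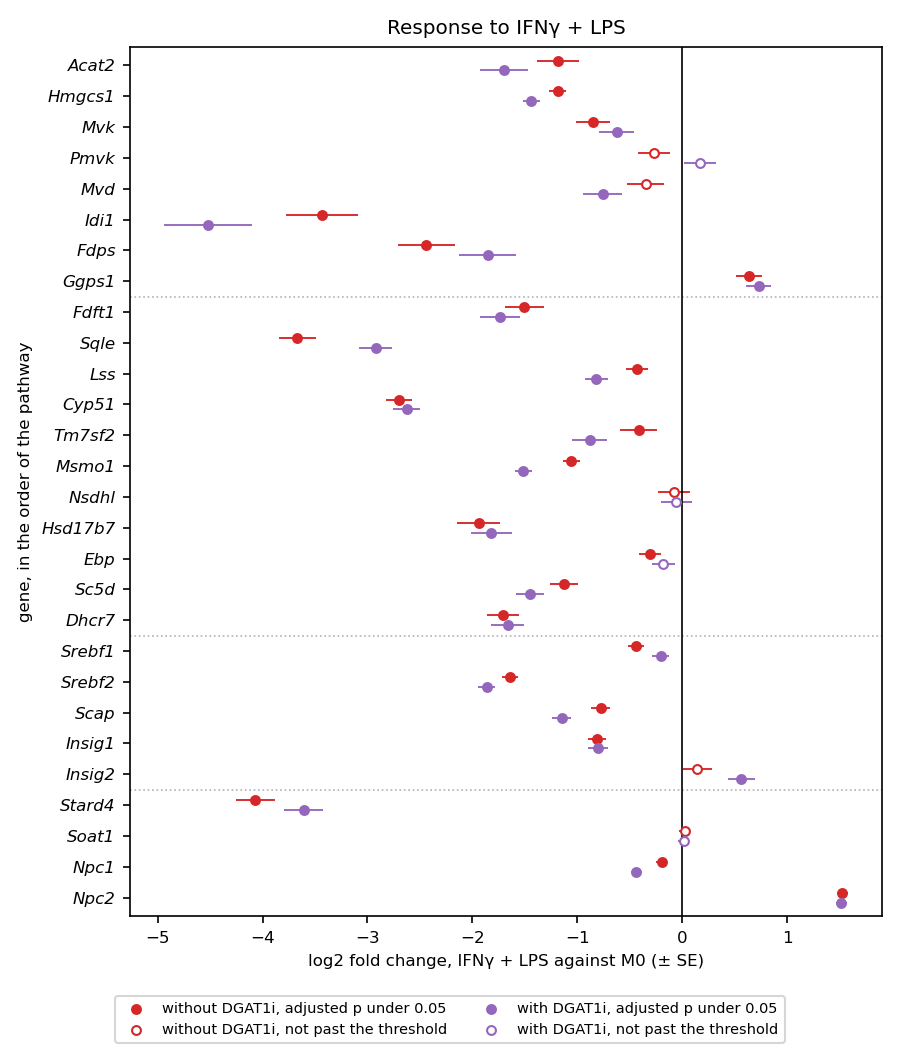
Log2 fold change of each member in IFNγ + LPS against M0, without (red) and with DGAT1i (purple), with SE as horizontal bars and filled points for an adjusted p under 0.05. Most points lie left of 0, with Stard4, Sqle and Idi1 farthest, and Npc2 and Ggps1 lie right of 0 in both.

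The regulators fell together with the enzymes. Srebf2 (ENSMUSG00000022463.7, chr15:82147181-82205379), which encodes SREBP2 itself, was at 88.9, 94.2 and 90.2 CPM in M0 and at 28.8, 29.5 and 29.0 in IFNγ + LPS. This was a 3.13-fold fall (log2 -1.64 ± 0.08, adjusted p = 1.72e-26) between groups whose libraries scarcely varied. Scap, the escort of SREBP, went from 51.4, 50.9 and 48.3 CPM to 29.1, 30.1 and 28.7 (log2 -0.78 ± 0.09, adjusted p = 4.08e-11), and Insig1, its sterol-dependent anchor and itself a known SREBP target, from 76.1, 84.0 and 71.3 to 47.4, 40.5 and 44.2 (log2 -0.81 ± 0.09, adjusted p = 1.14e-11). Srebf1, which encodes the SREBP1 forms that favour fatty acid genes, fell less (log2 -0.44 ± 0.08, adjusted p = 1.06e-06). Insig2, the relative of Insig1, was at 17.3 to 20.2 CPM in M0 and at 16.9 to 24.0 in IFNγ + LPS, and its log2 fold change of 0.15 ± 0.14 (adjusted p = 0.335) turned to -0.32 (adjusted p = 0.031) with scaling by library size only. Of these 5 genes 4 fell.

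Transport and storage genes moved in both directions. Stard4, a cytosolic sterol carrier and SREBP2 target, had the largest fold of all 28 members, from 32.8, 44.6 and 42.3 CPM in M0 to 2.95, 2.34 and 1.87 in IFNγ + LPS, which is 16.8-fold lower (log2 -4.07 ± 0.18, adjusted p = 6.97e-26). Npc2 (ENSMUSG00000021242.8, chr12:84754562-84773152) rose from 748, 744 and 806 CPM to 2204, 2202 and 2217 (log2 1.53 ± 0.05, adjusted p = 2.32e-33), a 2.88-fold rise and the opposite of the enzymes. Npc1, its partner in the lysosomal membrane that takes over the cholesterol, was slightly lower, from 309, 301 and 313 CPM to 273, 271 and 262 (log2 -0.19 ± 0.05, adjusted p = 0.00061). Soat1 was at 538, 499.9 and 569 CPM in M0 and at 546, 556 and 533 in IFNγ + LPS, which overlap. Its log2 fold change of 0.02 ± 0.05 (adjusted p = 0.678) became -0.45 (adjusted p = 5.04e-11) with scaling by library size only, and was -0.02 without M0 library 2. Npc1 and Npc2, which hand cholesterol out of the lysosome together, therefore went in opposite directions.

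**Figure D3:**
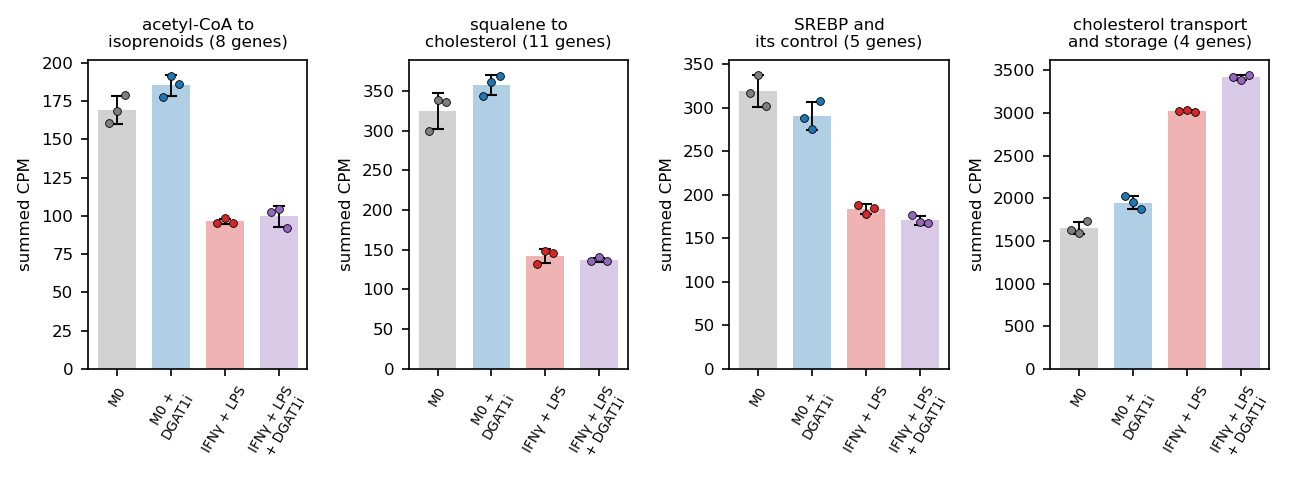
Summed CPM of the members of each step, with bars as means of 3 libraries, lines as SD and points as libraries. The enzymes and the SREBP genes are lower in both groups with IFNγ + LPS, whereas the transport and storage sum is higher there, with Npc2 making up most of it in those groups.

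DGAT1i in M0 moved fewer members, and by 1.40-fold (Tm7sf2) at most. Of the 28, 10 passed (35.7%), 8 higher and 2 lower, against 24.4% of all genes, 11.0% higher and 13.4% lower. The groups did not overlap in 11 of 28, against 37.8% of all genes, and the median log2 fold change was 0.10, against 0.0037 over all genes tested. From library 1 alone, the one whose description also gives T863, 5 members passed, Soat1, Npc1 and Npc2 higher and Srebf1 and Insig1 lower. Scaled by library size only, all genes split into 885 higher and 2092 lower against 1298 and 1571 with TMM, and 9 members passed, 6 higher and 3 lower.

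Of the 19 enzymes 4 passed as higher with DGAT1i in M0 and none as lower. That is 21.1% of them, near the 24.4% of all genes that passed (11.0% higher and 13.4% lower). Hmgcs1 went from 80.8, 87.1 and 97.2 CPM to 97.9, 112 and 111, with the lowest treated library just above the highest of M0 (log2 0.28 ± 0.07, adjusted p = 0.00116). Msmo1 went from 77.4, 82.3 and 86.3 CPM to 95.1, 102 and 104 (log2 0.29 ± 0.07, adjusted p = 0.00107). Sc5d rose from a range of 21.6 to 26.5 CPM to one of 28.4 to 32.8 (log2 0.37 ± 0.10, adjusted p = 0.00586), and Tm7sf2 from 9.05 to 9.99 CPM to 12.5 to 14.3 (log2 0.48 ± 0.14, adjusted p = 0.00827). These 4 act at the entry to the pathway and among the late sterol steps. From library 1 alone they kept the direction, with log2 fold changes of 0.13, 0.20, 0.24 and 0.37, and none passed (adjusted p = 0.454, 0.228, 0.35 and 0.286). Sc5d also lost its call without M0 library 1 (log2 0.31, adjusted p = 0.0558), and with DESeq2 neither Sc5d (adjusted p = 0.104) nor Tm7sf2 (0.103) passed. Ebp was at 27.1 to 27.5 CPM against 26.6 to 35.4 and did not pass (log2 -0.24 ± 0.10, adjusted p = 0.0722), but did without M0 library 1 (-0.35, adjusted p = 0.00952) and with scaling by library size only (-0.29, adjusted p = 0.0218). The steepest fallers in IFNγ + LPS showed no call here. Sqle was at 38.5, 39.0 and 48.2 CPM with DGAT1i against 33.0 to 42.3 without (log2 0.13 ± 0.10, adjusted p = 0.399), and Cyp51, Idi1, Fdps and Stard4 did not pass either.

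Of the SREBP genes, Insig1 and Srebf1 fell and Scap rose. Insig1 (ENSMUSG00000045294.11, chr5:28071363-28078662) was at 56.2, 50.3 and 62.6 CPM with DGAT1i in M0, below all 3 libraries of M0 at 71.3 to 84.0 (log2 -0.45 ± 0.08, 1.37-fold lower, adjusted p = 1.25e-05). Insig1, a target of SREBP2, thus fell where 4 enzymes of the pathway rose. Srebf1 went from 80.5, 89.8 and 75.3 CPM to 64.2, 61.6 and 73.1 (log2 -0.30 ± 0.07, adjusted p = 0.000841). Scap went from 48.3 to 51.4 CPM to 54.2 to 62.6 (log2 0.24 ± 0.08, adjusted p = 0.014), a call that was lost without M0 library 3 (log2 0.21, adjusted p = 0.065) or without library 1 (0.20, adjusted p = 0.0953) or 3 (0.22, adjusted p = 0.066) of M0 with DGAT1i, from library 1 of that group alone (0.30, adjusted p = 0.0567), with DESeq2 (0.22, adjusted p = 0.138) and with scaling by library size only (0.19, adjusted p = 0.0691). Srebf2 was at 85.7 to 90.0 CPM against 88.9 to 94.2 and did not pass (log2 -0.04 ± 0.06, adjusted p = 0.689), nor did Insig2 (log2 0.10 ± 0.13, adjusted p = 0.638).

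Of the transport and storage genes 3 of 4 rose. Npc1 had the smallest p of the members, with 412, 409 and 406 CPM in M0 with DGAT1i against 309, 301 and 313 in M0 (log2 0.41 ± 0.05, 1.33-fold, adjusted p = 1.14e-09). Soat1 (ENSMUSG00000026600.12, chr1:156424525-156474331) was at 665, 649 and 604 CPM against 538, 499.9 and 569 (log2 0.26 ± 0.05, adjusted p = 0.000109). Npc2 was at 904, 861 and 827 CPM against 748, 744 and 806 (log2 0.17 ± 0.05, adjusted p = 0.00808), the smallest of the 3 rises, and its call was lost without M0 library 1 (log2 0.16, adjusted p = 0.0576) or 2 (0.15, adjusted p = 0.0511) or library 1 of M0 with DGAT1i (0.14, adjusted p = 0.0756), and with scaling by library size only (0.12, adjusted p = 0.0838). In all 3 genes every treated library lay above every untreated one. Stard4 did not pass, at 33.2 to 41.4 CPM against 32.8 to 44.6.

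**Figure D4:**
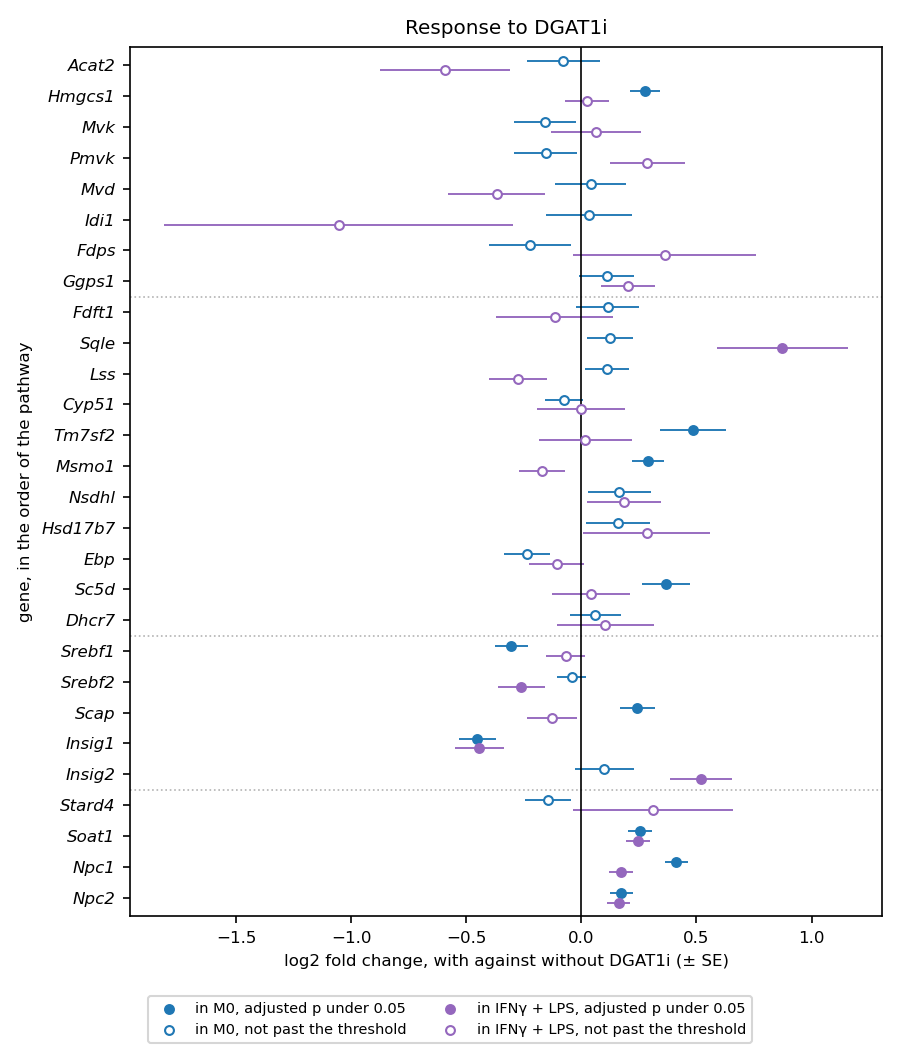
Log2 fold change of each member with against without DGAT1i, in M0 (blue) and in IFNγ + LPS (purple), with SE as horizontal bars and filled points for an adjusted p under 0.05. Insig1 lies left and Soat1, Npc1 and Npc2 lie right of 0 in both states, whereas Hmgcs1, Tm7sf2, Msmo1, Sc5d and Scap, right of 0, and Srebf1, left of 0, are filled only in M0, and Sqle, Insig2 and Srebf2 only in IFNγ + LPS.

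In inflammatory macrophages, few enzymes changed detectably with DGAT1i. Of the 28 members 7 passed with DGAT1i in IFNγ + LPS (25.0%), 5 higher and 2 lower, near the 29.8% of all genes that passed (13.5% higher and 16.3% lower). The groups did not overlap in 8 of 28, against 39.7% of all genes, and the median log2 fold change was 0.03, against -0.01 over all genes. The enzymes summed to 237 ± 8.75 CPM with DGAT1i and 238 ± 9.87 without (SD, n = 3), and 1 of 19 passed. Without a filter on low counts, 4 members passed, 3 higher and 1 lower, since Npc1 (log2 0.13, adjusted p = 0.133), Npc2 (0.12, adjusted p = 0.12) and Srebf2 (-0.30, adjusted p = 0.0529) no longer did.

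The enzyme that passed was Sqle. It was at 6.59, 4.80 and 5.14 CPM with DGAT1i and at 4.42, 2.34 and 2.44 in IFNγ + LPS alone, so that the lowest library of the one lay just above the highest of the other (log2 0.87 ± 0.28, 1.83-fold, adjusted p = 0.0159). It rests on 13 to 32 reads per library, and the call was lost without library 2 (log2 0.70, adjusted p = 0.102) or 3 (0.73, adjusted p = 0.0841) of IFNγ + LPS or library 1 of IFNγ + LPS with DGAT1i (0.72, adjusted p = 0.0999). With DGAT1i its libraries lay far under the 33.0 CPM of the lowest M0 library. Acat2 (log2 -0.59 ± 0.28, adjusted p = 0.11) and Idi1 (log2 -1.06 ± 0.76, adjusted p = 0.316, 0 to 4 reads per library with DGAT1i) had wide errors, and the 95% interval of Idi1 ran from -2.54 to 0.43. Acat2 passed without library 3 of IFNγ + LPS (log2 -0.82, adjusted p = 0.0329). Lss (log2 -0.28 ± 0.13, adjusted p = 0.0944) passed without library 1 of IFNγ + LPS with DGAT1i (-0.38, adjusted p = 0.0413), and Msmo1 (log2 -0.17 ± 0.10, adjusted p = 0.21) without library 1 of IFNγ + LPS (-0.30, adjusted p = 0.0239). With all libraries Sqle was the enzyme past the threshold.

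Of the SREBP genes, Insig1 fell further, from 47.4, 40.5 and 44.2 CPM to 36.0, 27.3 and 33.6 (log2 -0.44 ± 0.11, 1.36-fold lower, adjusted p = 0.00101). Insig2 rose, from 22.1, 16.9 and 24.0 CPM to 35.4, 31.9 and 21.9 (log2 0.52 ± 0.13, adjusted p = 0.00263), although the lowest library with DGAT1i lay within the range without. The INSIG genes, which share the task of retaining SCAP, thus went opposite ways. Srebf2 went from 28.8, 29.5 and 29.0 CPM to 24.9, 24.0 and 24.0, which do not overlap (log2 -0.26 ± 0.10, adjusted p = 0.0475). The call is marginal, since it was lost without any 1 of the 6 libraries compared (log2 -0.28 to -0.25, adjusted p = 0.0666 to 0.107) with DESeq2 (adjusted p = 0.112) and in a fit of only those 6 libraries (-0.24, adjusted p = 0.0991). Srebf1 (log2 -0.07 ± 0.09, adjusted p = 0.601) and Scap (log2 -0.13 ± 0.11, adjusted p = 0.403) did not pass.

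Soat1, Npc1 and Npc2 all passed, as in M0. Soat1 went from 546, 556 and 533 CPM to 652, 663 and 623 (log2 0.24 ± 0.05, adjusted p = 0.000229), Npc1 from 273, 271 and 262 to 306, 294 and 307 (log2 0.17 ± 0.05, adjusted p = 0.00939), and Npc2 from 2204, 2202 and 2217 to 2467, 2428 and 2514 (log2 0.16 ± 0.05, adjusted p = 0.0112). The groups did not overlap in any of the 3, although the rises were between 1.12-fold and 1.18-fold. Npc1 lost its call without library 3 of IFNγ + LPS (log2 0.15, adjusted p = 0.0579) and Npc2 without library 3 of IFNγ + LPS with DGAT1i (0.15, adjusted p = 0.0518).

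RNA of some neutrophil markers moved with the same comparison. The 8 markers of neutrophils and their precursors summed to 15.2 to 25.5 CPM in IFNγ + LPS and to 63.0 to 81.0 with DGAT1i. The 4 with enough reads, S100a8, S100a9, Ngp and Ltf, all rose (log2 1.70 to 2.68). In IFNγ + LPS with DGAT1i, S100a8 and S100a9 held 34.5 and 25.8 of the summed 74.6 CPM (means). Ngp and Ltf were at 9.18 and 4.33 CPM there, against 8.66 and 7.41 in M0. Camp had 2 to 4 reads per library in IFNγ + LPS and 2 to 5 with DGAT1i. In M0 the 8 markers summed to 32.0 to 39.3 CPM and in M0 with DGAT1i to 22.9 to 29.2. Of the granule proteins that mark precursors, Elane was at 0 in the 6 libraries with IFNγ + LPS, and Mpo and Prtn3 were at 0 in all but 1 of them each. In the 6 libraries of M0 with and without DGAT1i, Elane had 0 to 4 reads, Mpo 1 to 6 and Prtn3 0 to 4. Among 3 dendritic cell markers, Xcr1 went from 5.04 to 6.32 CPM to 0.417 to 1.17, and had 0 or 1 read per library in M0. Flt3 with 0 or 1 read and Zbtb46 with 1 to 5 reads per library of IFNγ + LPS with and without DGAT1i are too low to show a change. What part other cells had in the members' values was not tested.

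**Figure D5:**
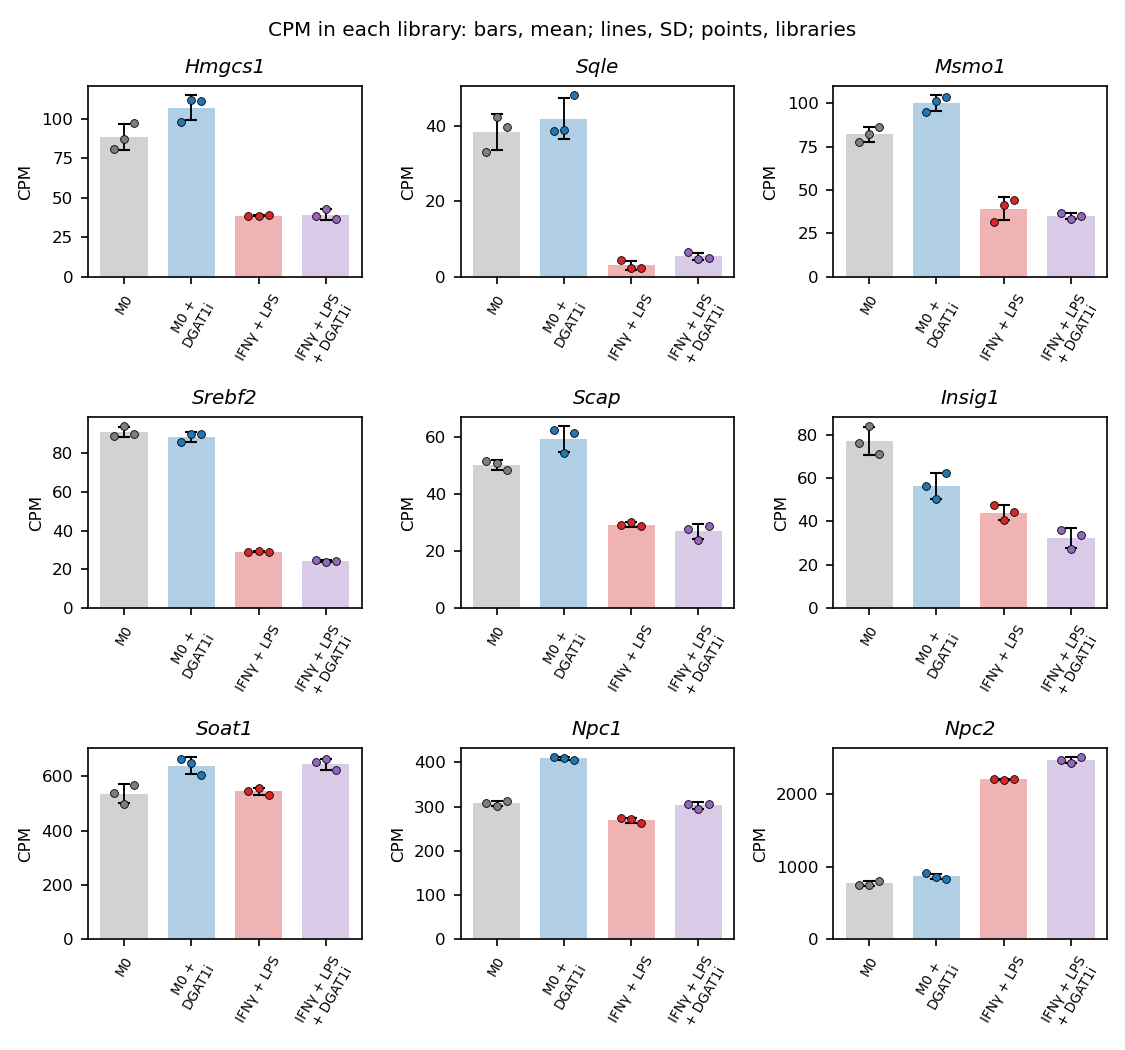
CPM of 9 members in each library, with bars as means, lines as SD and points as libraries, each axis starting at 0. For Hmgcs1, Msmo1 and Scap the points with and without DGAT1i separate in M0 and overlap in IFNγ + LPS, Insig1 is lower with DGAT1i in both states, and Soat1, Npc1 and Npc2 are higher in both.

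Whether DGAT1i acted differently in the resting and the inflammatory state was tested as the difference between both responses. Of the 28 members 3 passed, against 18.5% of all genes, and all 3 responses were lower in IFNγ + LPS. For Msmo1 (ENSMUSG00000031604.10, chr8:64718139-64733792), the log2 fold change was 0.29 in M0 and -0.17 ± 0.10 in IFNγ + LPS (31.8, 41.6 and 44.4 CPM without and 36.8, 33.4 and 35.0 with DGAT1i), which differ by -0.46 ± 0.12 (adjusted p = 0.00458). For Scap they were 0.24 and -0.13, a difference of -0.37 ± 0.13 (adjusted p = 0.0401). For Npc1, which rose in both, the rise was 0.41 in M0 and 0.17 in IFNγ + LPS, a difference of -0.24 ± 0.07 (adjusted p = 0.0119). From library 1 of M0 with DGAT1i alone, these differences were -0.34 (adjusted p = 0.116), -0.41 (adjusted p = 0.077) and -0.21 (adjusted p = 0.126). When scaled by library size only, Msmo1 alone passed, at adjusted p of 0.0841 for Scap and 0.0511 for Npc1, and all genes split into 1229 higher and 882 lower against 1019 and 1152 with TMM.

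The difference for Scap passed by little, since leaving out any of 8 of the 12 libraries ended its call, as did DESeq2 (adjusted p = 0.163) and RLE scaling (0.0518). These libraries were M0 libraries 2 and 3, the 3 libraries of IFNγ + LPS, libraries 1 and 3 of M0 with DGAT1i and library 2 of IFNγ + LPS with DGAT1i, with differences of -0.39 to -0.30 and adjusted p of 0.0511 to 0.144. The 3 other enzymes that rose in M0 did not pass this test, Hmgcs1 at -0.25 (95% interval -0.48 to -0.02, adjusted p = 0.133), Tm7sf2 at -0.47 (-0.95 to 0.02, adjusted p = 0.191) and Sc5d at -0.32 (-0.71 to 0.07, adjusted p = 0.275). Their rises in M0 are thus not shown to be particular to the resting state. Without M0 library 3 the difference for Hmgcs1 passed (-0.33, adjusted p = 0.0468). Sqle differed by 0.75 ± 0.30 (adjusted p = 0.0775), which passed without M0 library 1 (0.84, adjusted p = 0.042), library 1 of IFNγ + LPS (1.08, adjusted p = 0.0194) or library 3 of M0 with DGAT1i (0.86, adjusted p = 0.0329), and from library 1 of that group alone (0.91, adjusted p = 0.042). Insig2 differed by 0.42 ± 0.19 (adjusted p = 0.115), which passed without library 3 of IFNγ + LPS with DGAT1i (0.58, adjusted p = 0.0149), and Lss by -0.39 ± 0.16 (adjusted p = 0.0811), which passed without library 1 of that group (-0.49, adjusted p = 0.036). Srebf2 differed by -0.22 ± 0.12 (adjusted p = 0.214).

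Besides Npc1, Insig1, Soat1 and Npc2 passed with DGAT1i in both states, and for these 3 the differences were small. These were 0.01 (95% interval -0.25 to 0.27) for Insig1, -0.01 (-0.16 to 0.13) for Soat1 and -0.01 (-0.15 to 0.13) for Npc2, with adjusted p of 0.978, 0.95 and 0.936. These intervals leave room for a difference of up to 0.27 on the log2 scale for Insig1 and 0.16 for Soat1, and the sign of all 3 changed with the library left out or the scaling.

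Activation in the presence of DGAT1i lowered most members as well. Against M0 with DGAT1i, 24 of 28 members passed in IFNγ + LPS with DGAT1i, 3 higher and 21 lower, against 70.6% of all genes (35.3% in each direction), with a median log2 fold change of -1.02. With scaling by library size only, all genes split into 2333 higher and 6799 lower against 4152 and 4151 with TMM, their median moved to -0.43, and 26 members passed, 24 of them lower. From library 1 of M0 with DGAT1i alone 22 passed, without Mvk (log2 -0.51, adjusted p = 0.0512) and Srebf1 (-0.14, adjusted p = 0.27). These values and those of activation without DGAT1i come from separate libraries and are set side by side. Stard4 was 12.2-fold lower with DGAT1i and 16.8-fold without, Sqle 7.57-fold and 12.7-fold, Cyp51 6.16-fold and 6.49-fold, Srebf2 3.64-fold and 3.13-fold, and Msmo1 2.85-fold and 2.08-fold. Idi1 was 22.9-fold lower, on 0 to 4 reads per library. Among these 6 genes the test of the difference between the DGAT1i responses, which equals the difference between both activation responses, passed for Msmo1. Ggps1 (log2 0.73 ± 0.12, adjusted p = 2.61e-07), Insig2 (log2 0.56 ± 0.13, adjusted p = 0.00014) and Npc2 (log2 1.51 ± 0.05, adjusted p = 4.08e-33) were higher. Scaled by library size only, Insig2 was at 0.14 (adjusted p = 0.312). Mvd passed here (log2 -0.76 ± 0.19, adjusted p = 0.000363), and Pmvk, Nsdhl, Ebp and Soat1 did not. Srebf1 (log2 -0.20 ± 0.08, adjusted p = 0.0213) lost its call without library 3 of M0 with DGAT1i (-0.13, adjusted p = 0.198) or library 1 of IFNγ + LPS with DGAT1i (-0.14, adjusted p = 0.166), and with DESeq2 (-0.21, adjusted p = 0.0681).

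The order of the 4 groups differed among the members. In 20 of the 28 members every library without IFNγ + LPS lay above every library with it, against 27.0% of all genes tested. In 13 of these, among them Sqle, Cyp51, Idi1 and Stard4, M0 with and without DGAT1i overlapped, and in 7 they did not, where 37.8% of all genes tested did not overlap in this comparison. In Insig1 all 4 groups were separate, at 77.2 ± 6.43 CPM in M0, 56.3 ± 6.15 in M0 with DGAT1i, 44.0 ± 3.44 in IFNγ + LPS and 32.3 ± 4.49 with both (SD, n = 3). In Npc2 all 4 were separate as well, in the reverse order, at 766 ± 35.1, 864 ± 38.7, 2208 ± 7.89 and 2470 ± 42.8 CPM. Soat1 instead paired by inhibitor, with both groups given DGAT1i, at 639 ± 31.9 and 646 ± 20.3 CPM, above both groups without it, at 536 ± 34.8 and 545 ± 11.9. With scaling by library size only Soat1 was lower in IFNγ + LPS than in M0, so that this order holds relative to the scaling used.

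Other genes around the pathway, 59 in 6 lists of which 55 had enough reads, moved more unevenly. In IFNγ + LPS against M0, 36 of the 55 passed (65.5%, against 73.3% of all genes), 14 higher and 22 lower. With DGAT1i in IFNγ + LPS 20 passed (36.4%, against 29.8%), 9 higher and 11 lower, and with DGAT1i in M0 17 (30.9%, against 24.4%), 7 higher and 10 lower. These shares lie near those of all genes. Among the 7 SREBP targets of fatty acid synthesis, 6 were tested and all 6 fell in IFNγ + LPS, against 36.2% of all genes, with a median log2 fold change of -2.47. With DGAT1i in M0 3 of the 6 passed (50.0%, against 24.4% of all genes), 1 higher and 2 lower, and in IFNγ + LPS 1, higher (16.7%, against 29.8%). Fasn, the fatty acid synthase, fell with DGAT1i in M0, from 143, 148 and 143 CPM to 118, 107 and 125 (log2 -0.31 ± 0.06, adjusted p = 6.42e-05), as did Fads2, the delta-6 desaturase, from 5.01 to 6.68 CPM to 0.852 to 2.13 (log2 -1.74 ± 0.29, adjusted p = 3.7e-06). Scd2, a stearoyl-CoA desaturase, rose with DGAT1i in both states, in M0 from 47.2, 57.8 and 50.1 CPM to 63.2, 64.2 and 77.6 (log2 0.40 ± 0.08, adjusted p = 0.000134) and in IFNγ + LPS from 33.5, 35.5 and 36.7 CPM to 89.5, 79.1 and 94.6 (log2 1.31 ± 0.09, adjusted p = 6.77e-16), above all libraries of M0.

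Of 8 partners of sterol synthesis, 5 passed with DGAT1i in IFNγ + LPS (62.5%, against 29.8% of all genes), 3 higher and 2 lower, and 3 in M0 (37.5%, against 24.4%). Lbr, the lamin B receptor with the same sterol reductase activity as Tm7sf2, was at 80.6, 85.1 and 78.9 CPM in M0 and at 37.9, 35.8 and 37.5 with DGAT1i (log2 -1.14 ± 0.08, adjusted p = 6.72e-18), so that the genes for this step went opposite ways in M0. Por, the reductase that feeds electrons to Cyp51 and Sqle, rose in M0 from 380 to 430 CPM to 604 to 637 (log2 0.64 ± 0.05, adjusted p = 8.78e-15). Acss2, which makes acetyl-CoA from acetate, rose in IFNγ + LPS from 19.6, 22.1 and 21.0 CPM to 41.2, 39.2 and 41.8 with DGAT1i (log2 0.96 ± 0.12, adjusted p = 1.98e-09).

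Of 14 genes of SREBP processing and of protein degradation in the endoplasmic reticulum, 4 passed with DGAT1i in IFNγ + LPS, all lower, and 4 in M0, 1 higher and 3 lower. Each is 28.6% of the list, close to the 29.8% and 24.4% of all genes. Nfyb and Nfyc, subunits of NF-Y, fell in M0 (log2 -0.48 ± 0.14 and -0.42 ± 0.13, adjusted p = 0.00712 and 0.0152). Of 13 genes that use isoprenoids, 3 passed with DGAT1i in IFNγ + LPS (23.1%) and 4 in M0 (30.8%), again near all genes, among them Pdss1, which starts the side chain of coenzyme Q (log2 -0.87 ± 0.22, adjusted p = 0.00176, in IFNγ + LPS), Nus1 of dolichol synthesis (log2 0.36 ± 0.06, adjusted p = 3.29e-06, in M0) and Rabggtb, a subunit of the Rab prenylating enzyme (log2 0.45 ± 0.08, adjusted p = 3.19e-05, in M0).

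Of 5 oxysterol enzymes 3 were tested. Ch25h, which makes 25-hydroxycholesterol, was at 1.45 to 2.23 CPM in M0, 57.1 to 68.4 in IFNγ + LPS and 19.4 to 21.0 in IFNγ + LPS with DGAT1i, 3.21-fold below the group without (log2 -1.68 ± 0.11, adjusted p = 3.42e-18). It thus had the reverse of most enzymes' response to activation, and was lower with DGAT1i in M0 too (log2 -1.49 ± 0.42, adjusted p = 0.00569) at 0.132 to 0.930 CPM. Hsd3b7 rose with DGAT1i in IFNγ + LPS (log2 0.64 ± 0.19, adjusted p = 0.00832), and Cyp27a1, the sterol 27-hydroxylase, fell in M0 (log2 -0.43 ± 0.15, adjusted p = 0.0225). Of 12 other genes of cholesterol transport and esters 11 were tested, and 5 passed with DGAT1i in IFNγ + LPS (45.5%, against 29.8% of all genes) and 1 in M0 (9.09%, against 24.4%). Nceh1, a cholesterol ester hydrolase that works against Soat1, rose like it in both, from 548, 535 and 575 CPM to 736, 728 and 728 in M0 (log2 0.40 ± 0.05, adjusted p = 1.53e-09) and from 299, 318 and 309 to 393, 397 and 410 in IFNγ + LPS (log2 0.37 ± 0.05, adjusted p = 6.31e-08). Stard5, a sterol carrier, rose (log2 0.62 ± 0.14, adjusted p = 0.000633) and Gramd1b, which moves cholesterol from the cell membrane, fell (log2 -0.28 ± 0.06, adjusted p = 0.000257) in IFNγ + LPS.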

How the data were processed

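Raw read counts per gene, as deposited by the authors, were used for 12 libraries. The authors' pipeline named GRCm38, while for the aligner, the counter and the annotation release the entry is: not given in the sources used here. Of 47937 identifiers, 39106 matched GENCODE M21 with their version and 47224 without it, which gave symbols and positions. The labels and the study's methods name different library kits, so strandedness is unsure. Genes passing filterByExpr (11760) were fitted in R 4.3.3 with edgeR 4.0.16, by the quasi-likelihood test with 1 mean per group, TMM scaling and Benjamini-Hochberg adjustment over all genes tested, with 0.05 as the threshold. Library totals ran from 4996014 to 6621671 reads. Scripts were tested on simulated data. Promoters came from RefSeq, and near-identical copies from BLAST 2.17.0. Alternatives were RLE or library size scaling, other filters, DESeq2 1.42.0, a fit of the 6 libraries compared, a replicate block, each library left out, and, chosen after seeing the data, only the M0 library with DGAT1i described with T863. The 28 members and the gene lists were chosen with earlier results of these data known. Named were all 28 members, up to 3 genes of each other list with the largest change past the threshold with DGAT1i, and 3 genes that check the labels. Promoters shown were those of members past the threshold with DGAT1i in both states that were searched, and 3 chosen after their values were seen. Some genes are not reported here.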

Additional observations from a re-analysis of the deposited data

Results flagged for a closer look

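For 9 genes named in the report, the response to DGAT1i in IFNγ + LPS differed from that in M0 by the test of the difference itself (quasi-likelihood test of edgeR, adjusted after Benjamini and Hochberg), which 18.5% of all genes tested passed, as did 3 of the 28 members and 11 of the 55 other genes (20.0%). Of the members these were Msmo1, with a difference of -0.46 on the log2 scale (adjusted p = 0.00458), Scap with -0.37 (adjusted p = 0.0401) and Npc1 with -0.24 (adjusted p = 0.0119). The other genes were named for a large change with DGAT1i in 1 of the states, a choice that favours a difference between them. Of these, Lbr differed by 0.94 (adjusted p = 1.22e-05). Por differed by -0.60 (adjusted p = 1.17e-08) and Rabggtb by -0.44 (adjusted p = 0.00965). Cyp27a1 differed by 1.16 (adjusted p = 0.00809), Scd2 by 0.91 (adjusted p = 2.35e-07) and Gramd1b by -0.33 (adjusted p = 0.00292). No group has more than 3 libraries, so single libraries were not tested as outliers.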

How the results depend on the processing

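The number of members past the threshold stayed within 1.5 times of the value reported in all but 4 cases. Without a filter on low counts, 4 members passed with DGAT1i in IFNγ + LPS in place of 7. With scaling by library size only, 1 passed in the difference between the DGAT1i responses in place of 3. With only the M0 library with DGAT1i described with T863, an alternative chosen after seeing the data, 5 passed with DGAT1i in M0 in place of 10, and 1 in the difference, Sqle. Leaving out 1 library at a time gave 21 to 23 members for IFNγ + LPS against M0, 5 to 7 for DGAT1i in IFNγ + LPS, 8 to 10 for DGAT1i in M0, 23 to 24 for activation under DGAT1i and 2 to 4 for the difference. With library size only, the log2 fold change against M0 turned to -0.32 for Insig2 and to -0.45 for Soat1. The difference between the DGAT1i responses changed sign for Insig1 without a filter (-0.028), for Soat1 with RLE (0.0062), library size (0.0392) and DESeq2 (0.0042), and for Npc2 with the same settings (0.0041, 0.0369 and 0.0020). The response of Sqle in M0 was -0.0154 with the single library described with T863. Leaving out 1 library also changed signs of values near 0, with ranges against M0 of -0.18 to 0.030 for Nsdhl and -0.020 to 0.073 for Soat1, and in the difference of -0.082 to 0.12 for Insig1, -0.058 to 0.035 for Soat1 and -0.053 to 0.019 for Npc2. The causes were not tested. With the length of the longest transcript, levels in M0 became 232 CPM per kb for Npc2, 64.0 for Soat1, 25.5 for Hmgcs1, 27.6 for Msmo1, 3.10 for Tm7sf2, 2.79 for Idi1 and 7.42 for the median of the 28 members, so that Msmo1 in place of Hmgcs1 was the highest enzyme and Idi1 in place of Tm7sf2 the lowest member.

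Libraries of the same number share only that number. Their deviations from the group means correlated at -0.02 to 0.07 over 18 pairs, against -0.06 to 0.04 over 36 pairs of other numbers. With the replicate number as a block, 23, 6, 10, 24 and 3 members passed in the 5 comparisons, and Srebf2 with DGAT1i in IFNγ + LPS was the call lost (log2 -0.26, adjusted p = 0.0547). Depth limits the low members, above all Idi1, Fdps, Stard4, Hsd17b7 and Sqle in IFNγ + LPS, where 1 CPM stood for as few as 4.28 reads.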
